A study of Rattus norvegicus with 64 samples.

Results

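The comparison described here sets the lungs of 6 rats that breathed fracking sand dust at 30 mg/m3 against those of 6 rats that breathed filtered air, all taken 7 days after exposure. These 12 libraries, chosen by their labels, are part of 64 in the series, and 15551 of the 30045 genes in the table passed the filter on low counts and were tested. All 64 rats were male Sprague-Dawley animals, an outbred stock, exposed in whole-body chambers for 6 hours a day on 4 days. The dust comes from sand used in hydraulic fracturing. Air rats sat in the same kind of chamber with filtered air, and no other agent, allele or treatment is named for either group. A separate study at 10 mg/m3 had its own air rats, and both studies also sampled lungs at days 1 and 27. The age of the rats is not given in the sources used here. They were housed in pairs, and which rats shared a cage is also not given. RNA came from a piece of lung, depleted of ribosomal RNA. Library totals ran from 6640183 to 11268738 counts and did not separate the groups (exact permutation p = 0.641, two-sided). Air rats carry the numbers 65 to 71 in their titles and dust rats the numbers 73 to 79, so any order of handling that follows these numbers cannot be told apart from the exposure.

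Lung tissue is built of gas-exchanging alveoli, airways and vessels, and in rodents the walls of the pulmonary veins also hold a sleeve of heart muscle that continues from the left atrium. Striated muscle contracts through sarcomeres, in which myosin thick filaments slide along actin thin filaments between Z-discs, with titin as a spring. In heart muscle, calcium that triggers each contraction leaves the sarcoplasmic reticulum through the ryanodine receptor. Inhaled mineral dust is best known in lung for recruiting macrophages and neutrophils and for effects on alveolar cells.

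The libraries carried lung markers at high levels in both groups. Sftpc, the surfactant protein of alveolar type 2 cells, had a median of 9642 CPM in air (reads per gene relative to the library total, scaled by the trimmed mean of M values, TMM), and its lowest value was 8890.2 CPM in air and 9992 CPM in dust. Ager, of alveolar type 1 cells, had medians of 1818 and 1769 CPM. The club cell gene Scgb1a1 stood at 2149 and 2099 CPM, and the endothelial gene Pecam1 at 302 and 342 CPM.

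At day 7, 10 genes were lower in dust rats and 0 were higher. By edgeR's quasi-likelihood test with Benjamini-Hochberg adjustment at 0.05, 10 of 15551 genes fell (0.0643%) and 0 rose (0%). At an unadjusted p under 0.05, 448 genes were lower (2.88%) and 328 higher (2.11%), and the median log2 difference of all genes was -0.0019. With DESeq2, 55 genes passed, 52 lower and 3 higher, and all 10 were among them. With limma voom, 7 of the 10 passed and no other gene did. Of the 10 genes, 7 belong to lists of striated muscle genes, of which 6 are described: Ryr2 of calcium release, Ttn of the thick filament, Ldb3 and Txlnb of the Z-disc list, and Fndc5 and Pygm of muscle energy use. The other 3 are Ldhb, Gpc1 and LOC103691832. Every dust rat lay below every air rat in 9 of the 10. Over all genes tested, 90 had this separation (0.579%), and 21 had the reverse, every dust rat above every air rat (0.135%). Because the 10 genes were picked for their difference between these same rats, the 9 of 10 is a description. The count depended on single rats. It was 0 by edgeR without air rat 70, dust rat 76 or dust rat 79, where 720, 792 and 580 genes had an unadjusted p below 0.05. It was 3 or 4 without air rat 68 or 71 or dust rat 73, 74 or 77, and 20 or 21 without air rat 65 or 66. That each library is a separate rat rests on the titles, so p-values measure the spread between these samples. In a piece of tissue, fewer cells of a type and less RNA per cell cannot be told apart.

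**Figure D1:**
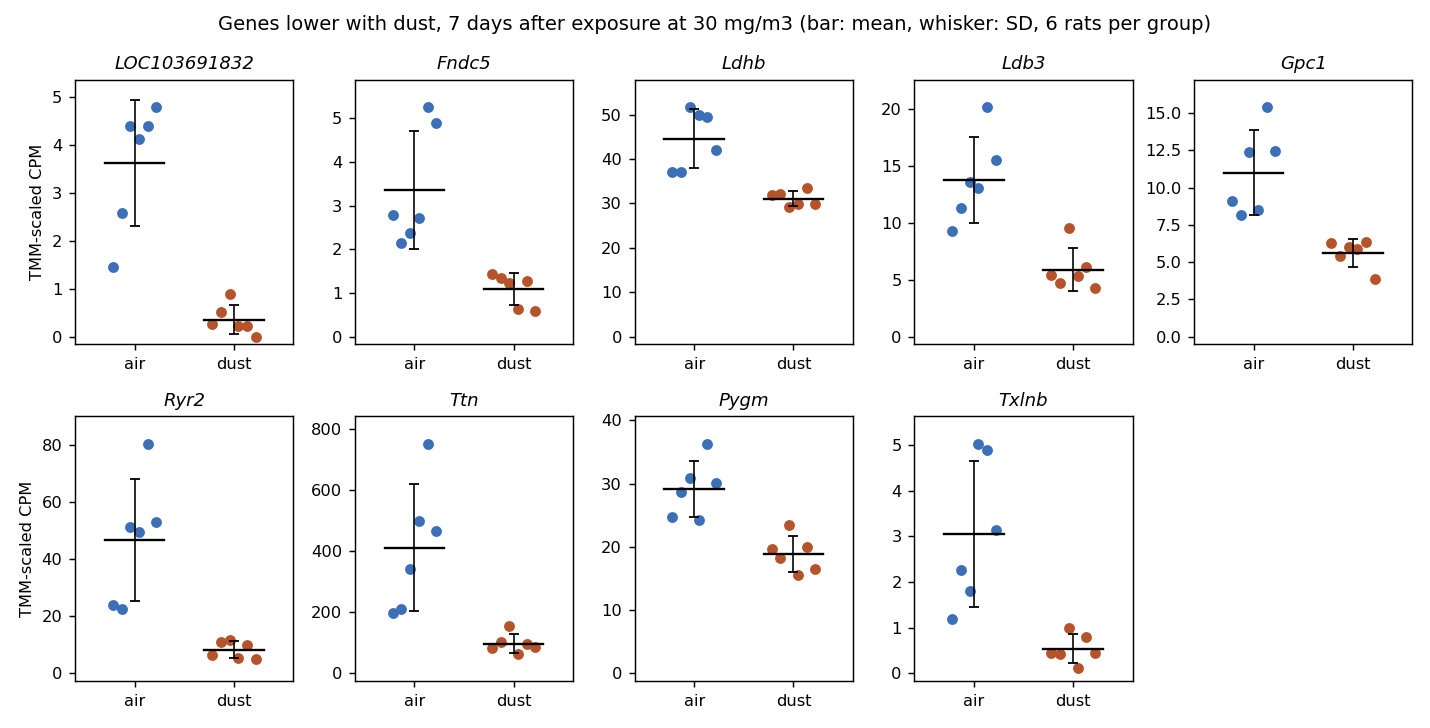
TMM-scaled CPM (vertical axis, linear from 0) of 9 of the 10 genes that passed the test, with 1 point per rat, a bar at the mean and a whisker of 1 SD. Air and dust points overlap for Ldb3 alone, where the highest dust rat, at 9.54 CPM, lies above the lowest air rat, at 9.25 CPM.

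The promoters of the genes that fell together are shown for 3 genes in which a searched muscle motif was found, so that the letters can be seen beside the values below. RefSeq held a promoter for 6 of the 10 genes (Fndc5, Ldhb, Ldb3, Ryr2, Ttn and Pygm), each of 300 bases around the start site, on build GRCr8, which is not the build of the counts (Rnor_6.0). In the lines below, lower case is sequence read 5′ to 3′ on the gene's strand and capitals mark the motifs found. For Ttn (chr3:82332061-82332360, minus strand) they mark a MEF2 site, upstream of the start, and an M-CAT site (CATTCC), just after it. For Ldb3 (chr16:9924630-9924929, minus strand) they mark a CArG box, the site known for serum response factor. For Pygm (chr1:213119555-213119854, plus strand) they mark 2 E-boxes of the form CAGCTG, the kind known for muscle bHLH factors.
Ttn: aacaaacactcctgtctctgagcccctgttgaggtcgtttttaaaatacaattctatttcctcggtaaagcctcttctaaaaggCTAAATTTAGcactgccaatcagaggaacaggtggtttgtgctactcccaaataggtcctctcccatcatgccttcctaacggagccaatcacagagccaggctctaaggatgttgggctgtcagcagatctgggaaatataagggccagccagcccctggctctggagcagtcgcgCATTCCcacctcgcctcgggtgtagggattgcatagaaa
Ldb3: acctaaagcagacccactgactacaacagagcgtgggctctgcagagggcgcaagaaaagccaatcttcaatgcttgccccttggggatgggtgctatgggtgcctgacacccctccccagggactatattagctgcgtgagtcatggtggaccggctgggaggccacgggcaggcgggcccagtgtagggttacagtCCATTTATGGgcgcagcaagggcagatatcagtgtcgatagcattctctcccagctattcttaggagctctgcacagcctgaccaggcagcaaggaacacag
Pygm: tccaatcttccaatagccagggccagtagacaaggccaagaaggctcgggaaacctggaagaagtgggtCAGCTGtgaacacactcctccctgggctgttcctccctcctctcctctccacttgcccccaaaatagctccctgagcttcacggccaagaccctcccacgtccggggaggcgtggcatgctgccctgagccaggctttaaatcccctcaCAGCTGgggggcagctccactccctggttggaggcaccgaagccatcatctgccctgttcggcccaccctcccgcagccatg
Both strands were searched for 7 motifs, with MEF2 and CArG given by name. The others were CATTCC for M-CAT, AGATAA for the sites of GATA factors, CAGCTG for E-boxes, TATAAA for the core promoter box and AGAACA for the half-site of the glucocorticoid receptor; MEF2, CArG and core promoter patterns are rich in A and T and can overlap. Of 33469 promoters of the same length, 3.29% held a MEF2 site, 1.64% a CArG box, 14.2% an M-CAT site, 11.6% a GATA site, 15.1% an E-box, 14.2% a TATA site and 20.7% the half-site. Of the 6 promoters, MEF2, CArG, M-CAT and E-box sites each occurred in 1, and the other motifs in 0. Such matches describe letters in these windows only.

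The main calcium release gene of heart muscle was among those that fell. Ryr2, through which the store releases calcium, had 22.3, 50.2 and 80.3 CPM as lowest, median and highest air values and 4.87, 8.12 and 11.8 CPM in dust. Every dust rat lay below every air rat, and the log2 change was -2.50 (SE 0.49; edgeR adjusted p = 0.0359).

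Of the 20 tested members of the calcium and excitation list, 18 were below 0 and 2 fell, with a median log2 difference of -0.21. In the lower direction, 10 had an unadjusted p under 0.05, beside 2.88% of all genes tested. Those 10 include genes of the calcium store. Casq2, its calcium-binding protein, spanned 4.89 to 22.6 CPM among air rats and 2.36 to 5.91 CPM among dust rats (log2 difference -1.66; edgeR adjusted p = 0.297). For Atp2a2, the calcium pump that refills the store, the dust range of 235 to 317 CPM lay below the air range of 323 to 505 (log2 difference -0.45; edgeR adjusted p = 0.0648). Hrc and Trdn, which sit at the store's release site, had log2 differences of -2.36 and -1.68, with no overlap between groups. Other channel and exchanger genes sat near 0, with -0.03 for Kcnj5, -0.06 for Kcnq1 and 0.02 for Slc8a1.

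Sarcomere genes lay on the same side. Ttn, which encodes the giant spring titin, had 197, 403 and 751 CPM as lowest, median and highest air values. In dust these were 63.4, 90.5 and 154 CPM, so the groups did not meet. The log2 change, dust minus air, was -2.09 (SE 0.42; 6 rats each; edgeR adjusted p = 0.0437). Ldb3, a Z-disc protein that binds alpha-actinin, spanned 9.25 to 20.2 CPM among air rats, with a median of 13.3, and 4.28 to 9.54 CPM among dust rats, with a median of 5.38. Its log2 change was -1.22 (SE 0.23; 6 rats each; edgeR adjusted p = 0.0169). Txlnb, a taxilin enriched in striated muscle, had a median of 2.69 CPM in air, in a range of 1.19 to 5.03, and of 0.443 CPM in dust, in a range of 0.107 to 0.999. These ranges did not overlap, and the log2 change was -2.48 (SE 0.52; edgeR adjusted p = 0.0481).

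All 13 tested thick filament genes were below 0, with a median log2 difference of -2.09, and 12 had an unadjusted p under 0.05; 1 of them, Ttn, fell by edgeR, and 8 passed by DESeq2. The summed level of the list was 439 to 1609 CPM in air and 97.7 to 315 CPM in dust. Myh6, the fast myosin heavy chain of heart muscle, had 119.9, 167 and 404 CPM as lowest, median and highest air values and 8.97, 31.2 and 74.3 CPM in dust (log2 difference -2.71; edgeR adjusted p = 0.168). Myh7b, a related myosin, had a log2 difference of -0.05. Thin filament genes were below 0 in 7 of 7, with a median of -1.18, and 0 passed by edgeR with all 36 libraries. In other edgeR settings, Tnnt2 passed with only the 12 libraries of day 7 and Tnni3 with no robust estimation (adjusted p = 0.0370 and 0.0494). By DESeq2, 3 passed (Tnni3, Tnnc1 and Tnnt2). Of these, the inhibitory troponin Tnni3 spanned 13.4 to 59.1 CPM among air rats and 1.92 to 9.85 CPM among dust rats (log2 difference -2.58; edgeR adjusted p = 0.0912). Of the 21 tested genes of the Z-disc and scaffold list, 19 were below 0 and 2 fell, with a median of -0.91. An unadjusted p under 0.05 in the lower direction was seen in 14, beside 2.88% of all genes tested. Actn2, the alpha-actinin of the Z-disc, had a log2 difference of -2.64 with no overlap, and Pdlim5 and Nexn, of the same list, had 0.01 and -0.02.

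**Figure D2:**
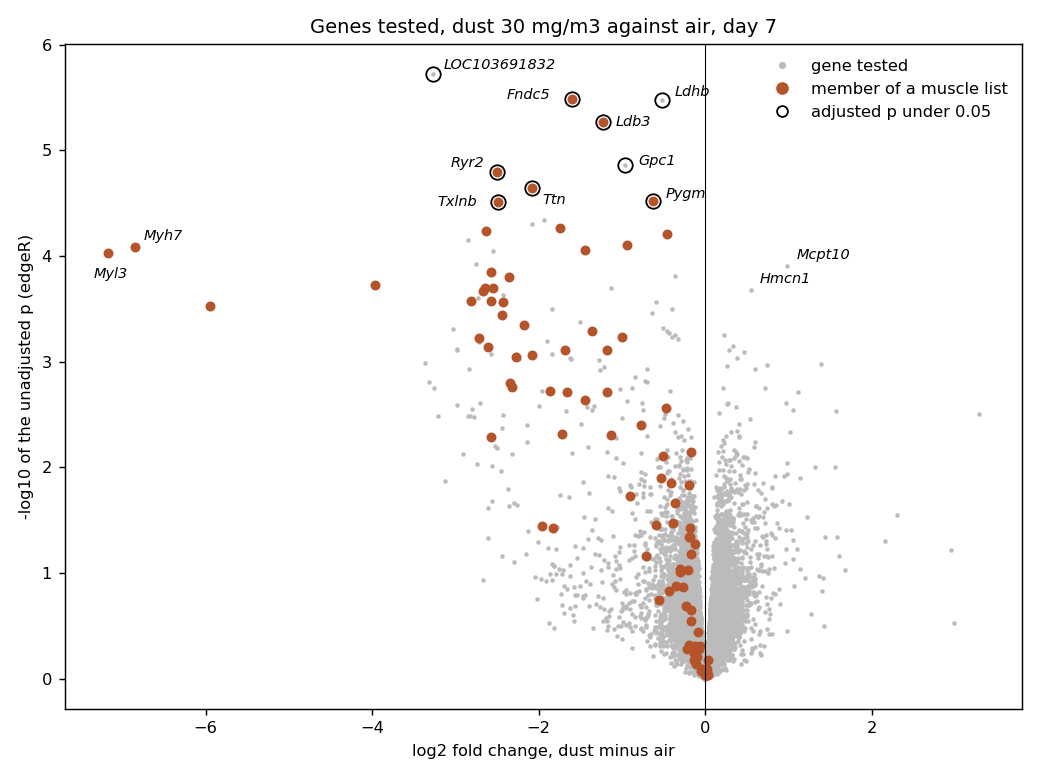
Log2 fold change of dust minus air (horizontal axis) against -log10 of the unadjusted edgeR p (vertical axis) for the genes tested, with members of the muscle lists in colour and rings around 9 of the 10 genes that passed. The coloured points lie almost wholly to the left of 0; over the muscle lists, 88 of 95 genes were below it.

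Genes of energy use in muscle made up the third set. Fndc5, which encodes the precursor of irisin, had 2.14, 2.74 and 5.25 CPM as lowest, median and highest air values and 0.590, 1.24 and 1.42 CPM in dust. The log2 change, dust minus air, was -1.60 (SE 0.29; 6 rats each; edgeR adjusted p = 0.0129). Pygm, the glycogen phosphorylase of muscle, had air values from 24.2 to 36.3 CPM, with a median of 29.4, and dust values from 15.5 to 23.4 CPM, with a median of 18.9. The gap between the groups was small, and the log2 fold change was -0.63 ± 0.13 (SE; edgeR adjusted p = 0.0481). Of 19 tested members of this list, 17 were below 0, with a median of -0.63. In the lower direction, 14 had an unadjusted p under 0.05 and 8 had no overlap, beside 2.88% and 0.579% of all genes tested. Mb, the oxygen store myoglobin, had air values from 7.40 to 106 CPM and dust values from 0.3202 to 7.21 CPM (log2 difference -3.97; edgeR adjusted p = 0.105). The muscle creatine kinase Ckm and the muscle phosphoglycerate mutase Pgam2 had -2.82 and -2.57, and the fatty acid carrier Fabp3 had -2.44, each with every dust rat below every air rat. The enzymes of fatty acid oxidation Acadm and Hadha, which most cells use, had 0.03 and 0.00.

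The 3 called genes outside these lists were followed in the same way. Ldhb encodes the lactate dehydrogenase subunit that prevails in heart. Its air range was 37.1 to 51.7 CPM (median 45.9) and its dust range 29.2 to 33.4 CPM (median 30.97). The log2 change, dust minus air, was -0.52 (SE 0.09; 6 rats each; edgeR adjusted p = 0.0129), the smallest of the 10. Gpc1, a cell-surface heparan sulfate proteoglycan, had air values from 8.15 to 15.4 CPM and dust values from 3.84 to 6.31 CPM, with medians of 10.8 and 5.93. Its log2 fold change was -0.96 ± 0.19 (SE; edgeR adjusted p = 0.0359). LOC103691832 is a locus that the files list by number only. It had the largest change of the 10, with air values from 1.45 to 4.79 CPM and dust values from 0 to 0.888 CPM (log2 fold change -3.27 ± 0.57, SE; edgeR adjusted p = 0.0129).

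Over all 9 muscle lists, which hold 133 different genes, 95 were tested. Of these, 88 were below 0, 7 fell and 0 rose, 59 had an unadjusted p under 0.05 in the lower direction and 0 in the higher, and 27 had every dust rat below every air rat. Over all genes tested, 2.88% were lower at that p and 0.579% had every dust rat below every air rat. The median log2 difference of the muscle list members was -0.60, beside -0.0019 for all genes. The lists were set with earlier results of these data known. Without air rats 65 and 68, left out together after their values were seen, 12 genes passed, all lower, and 8 of them were among the 10.

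**Figure D3:**
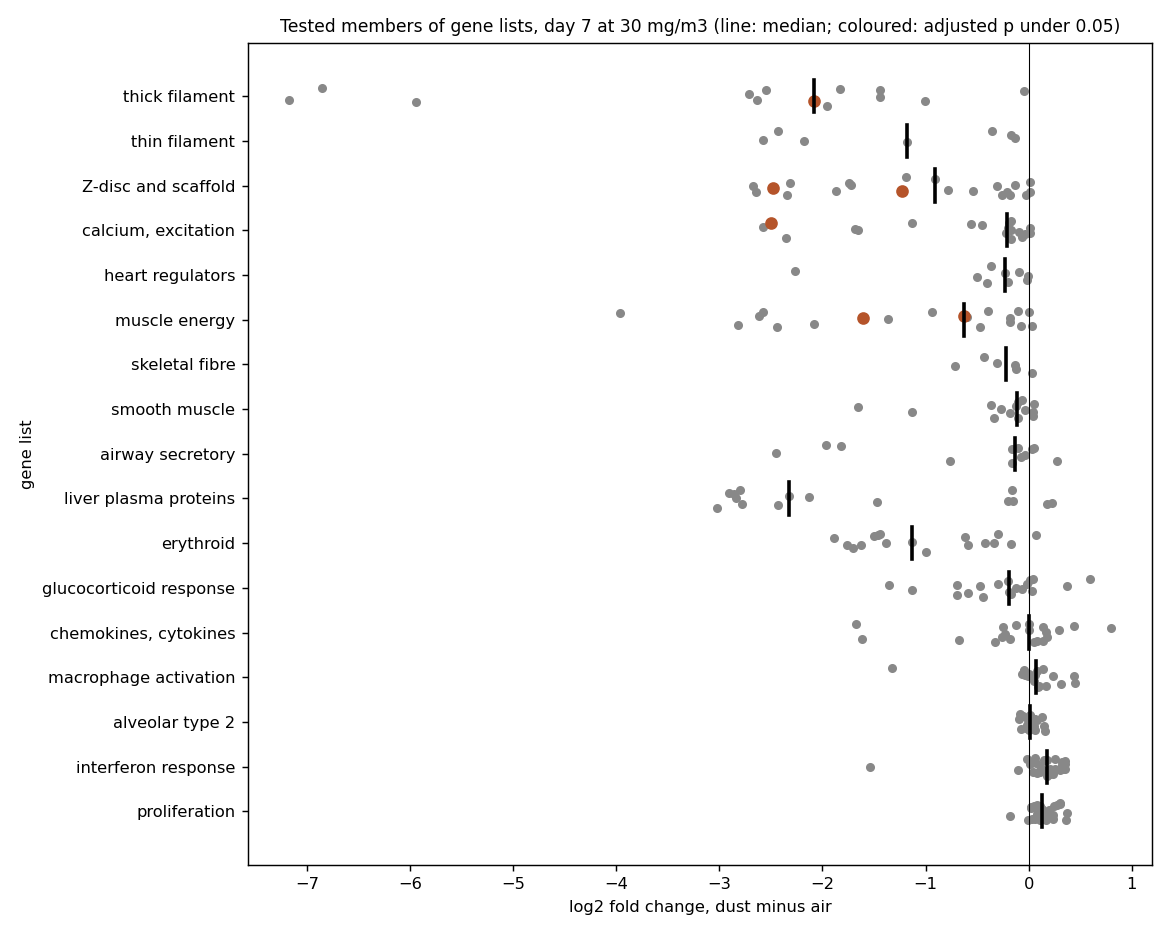
Log2 fold change of dust minus air (horizontal axis) for tested members of 17 gene lists (rows), with a line at the median of each whole list and coloured points for members past the test. Coloured points appear in the thick filament, Z-disc, calcium and energy rows, and the medians of the chemokine, macrophage, alveolar type 2, interferon and proliferation rows lie between 0.00 and 0.18.

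Skeletal fibre genes were few. In the skeletal fibre list 6 of 22 members passed the filter, 0 of them passed the test by edgeR or DESeq2, and the median was -0.22. The myosin of fast fibres, Myh4, had 0 counts in the 6 air libraries together and 1 in the dust libraries, and Myod1, which sets skeletal muscle identity, had 0 in all. The summed level of this list, 228 to 439.8 CPM in air and 231 to 343 CPM in dust, came mostly from Neb, the thin filament ruler nebulin, at 209 to 420.1 CPM in air and 214 to 327 CPM in dust. Genes of smooth muscle, which lines airways and vessels, had a median of -0.12, with 0 of 14 past the threshold by edgeR or DESeq2. An unadjusted p under 0.05 was seen in 4 in the lower direction and 0 in the higher. This list shares Pln, Casq2 and Myocd with the heart muscle lists. Its sum was 2113 to 2882 CPM in air and 2096 to 2889 CPM in dust.

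Atrial and ventricular genes ordered the air rats differently. Of 8 atrial markers 5 were tested, 5 were below 0 and 0 passed by edgeR or DESeq2; Bmp10 had no count. Their sum was 10.2 to 328 CPM in air and 16.97 to 66.4 CPM in dust. Myl7, the atrial regulatory light chain, stood at 54.3, 55.4, 0.790, 90.8, 201 and 113 CPM in rats 65, 66, 68, 69, 70 and 71 of the air group, and at 5.34 to 37.9 CPM in dust. Air rat 68 was thus below every dust rat in Myl7, and its values for Myl4 and Sln, 1.69 and 0.113 CPM, were also the lowest of the 12. For all other air rats Myl7 was above the dust range.

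The same rat was at or near the top in ventricular genes. Myl3, the light chain of ventricle and slow muscle, stood at 0.264, 1.18, 49.1, 24.1, 9.77 and 7.24 CPM in the air rats in the same order, and at 0 to 0.148 CPM in dust. Myh7, the slow myosin heavy chain, was at 56.6 CPM in air rat 68 and 57.2 in air rat 69, and at most 0.666 CPM in dust. The ventricular list summed to 0.793 to 59.1 CPM in air and to at most 0.3202 CPM in dust. Of its 5 members, 2 passed the filter, Myl2 and Myl3, and Hand1 and Lrrc10 had no count. Both Myl2 and Myl3 passed the test by DESeq2 and not by edgeR with all 36 libraries. Over 25 alternative settings Myl3 passed in 7 and not in 18. Those 7 include DESeq2, edgeR with all 64 libraries (adjusted p = 0.01355), and edgeR without air rat 65 or 66 (0.0352 and 0.0369). The setting without the library above 100 CPM of Alb leaves out the same air rat 65, so that fit is counted under both names. Myl3 and Myl2 had fitted log2 differences of -7.17 and -5.95 (edgeR adjusted p = 0.0694 and 0.118), which rest on dust values near 0. Nppa, the atrial natriuretic peptide, had 16 counts in air rat 68, 5, 7 and 3 in rats 69, 70 and 71, none in rats 65 and 66, and 1 in all dust libraries together. Among genes that both chambers use, Myh6, Ttn and Ryr2 had no overlap between groups, whereas Tnnc1, Casq2, Myom2 and Ldb3 overlapped. Without air rat 68, 4 genes passed, among them Fndc5, Ldb3 and LOC103691832.

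**Figure D4:**
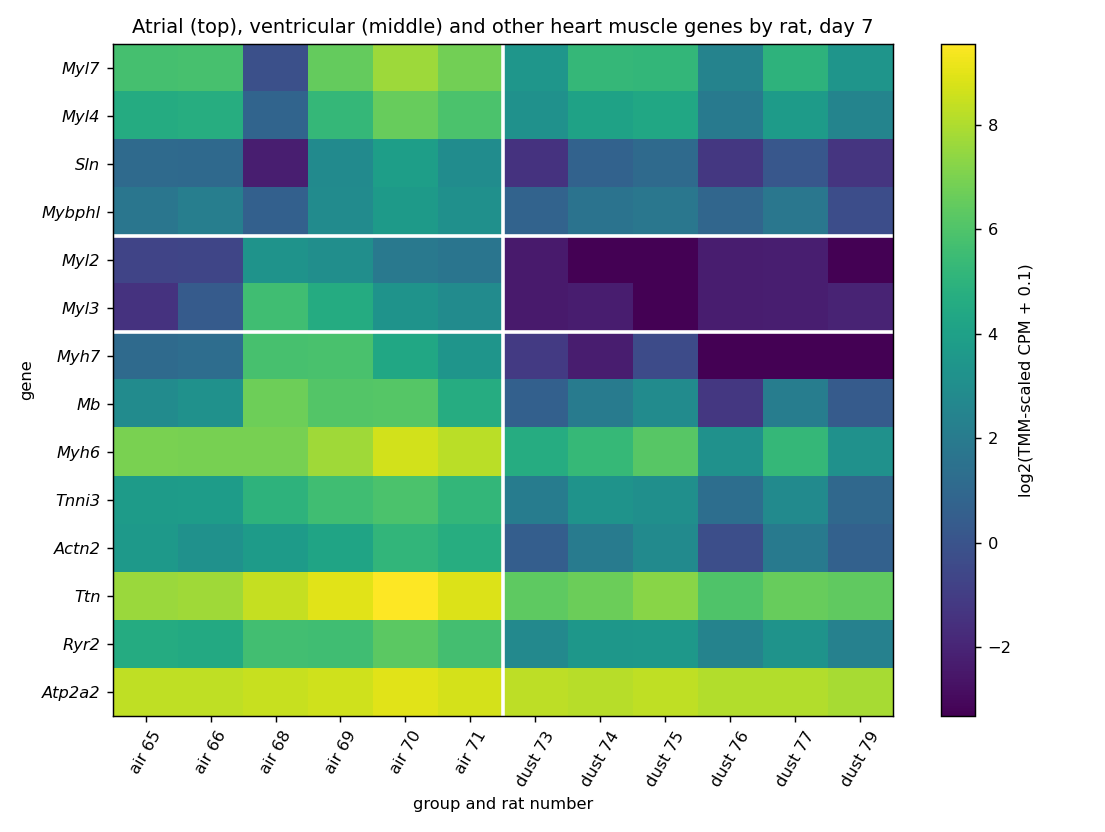
Heat map of log2(TMM-scaled CPM + 0.1) for 14 heart muscle genes (rows) in the 12 rats (columns), with atrial markers at the top, ventricular markers in the middle and other heart muscle genes at the bottom. Air rat 68 has the lowest values of the 12 for Myl7, Myl4 and Sln and the highest for Myl2 and Myl3, and the dust columns are darkest in the ventricular rows and for Myh7.

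A pair of airway genes shared their lowest and highest air rats with Myl7. Muc5b, a gel-forming mucin, had air values of 23.8, 25.7, 12.2, 30.2, 55.3 and 24.8 CPM in rats 65, 66, 68, 69, 70 and 71, and 4.13 to 9.65 CPM in dust (log2 difference -1.96; edgeR adjusted p = 0.297, and 0.0323 with only the 12 libraries of day 7 in the fit). Scgb3a1, a secretoglobin of the upper airway epithelium, had 21.2, 20.6, 1.35, 41.5, 56.9 and 18.8 CPM in the same rats and 2.21 to 10.3 CPM in dust (log2 difference -2.45; edgeR adjusted p = 0.733). Both were lowest in air rat 68 and highest in air rat 70 among the air rats; air rat 71, the next highest in Myl7, was not next highest in either. The secretory airway list as a whole had 9 of 12 tested members below 0, a median of -0.14 and 0 past the threshold by edgeR with all 36 libraries or by DESeq2. Its sum, mostly from club cell genes, was 3391 to 4152 CPM in air and 2586 to 4086 CPM in dust. Whether the piece of lung taken had a part in these differences was not tested.

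The share of RNA of the mitochondrial ribosome also differed. Of its 2 genes, Rnr1 and Rnr2, 0 passed by edgeR and 1, Rnr1, passed by DESeq2. Every dust rat lay below every air rat in 1 of the 2. Rnr1 and Rnr2 together took 0.458 to 0.885% of counts in air, with a median of 0.653%, and 0.109 to 0.453% in dust, with a median of 0.224%, so the groups did not overlap. The mean share was 0.678 ± 0.157% in air and 0.256 ± 0.140% in dust (SD, n = 6 each; exact two-sided permutation p = 0.00216, the smallest that 6 against 6 can give, and 0.00649 adjusted over 3 library measures). In air rats 65, 66, 68, 69, 70 and 71 the thick filament sums were 439, 450.4, 643, 1016, 1609 and 1047 CPM. Their shares were 0.830, 0.651, 0.885, 0.590, 0.654 and 0.458%. In dust rats 73, 74, 75, 76, 77 and 79 the sums were 145, 221, 315, 97.7, 200 and 125 CPM. Their shares were 0.198, 0.109, 0.453, 0.395, 0.251 and 0.132%. Whether share and sum are related was not tested. On the scale of all 64 libraries, Rnr1 spanned 1107 to 2860 CPM in air and 112 to 730 CPM in dust at day 7. At day 1 of that study it spanned 172 to 2730 CPM in air and 143 to 1296 CPM in dust. The ranges at day 27 were 926 to 4107 CPM in air and 645 to 3901 CPM in dust. The library preparation removes ribosomal RNA, and how completely it did so in each library was not tested. With this share as a covariate 0 genes passed by edgeR and 584 had an unadjusted p below 0.05. The fitted log2 changes in that fit were -1.99 for Ttn, -2.39 for Ryr2, -1.60 for Fndc5 and -0.54 for Ldhb, beside -2.09, -2.50, -1.60 and -0.52 without it. The share did not overlap between the groups, so its part and that of exposure cannot be told apart.

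In some other lists a few air rats stood apart. Of 15 tested liver plasma protein genes, 13 were below 0, with a median of -2.32. In the lower direction, 10 had an unadjusted p under 0.05, beside 2.88% of all genes tested. None passed by edgeR, and 3 passed by DESeq2, Alb among them. Alb, the serum albumin transcript, was at 371 CPM in air rat 65, at 15.7 to 32.2 CPM in the other air rats and at 7.10 to 12.4 CPM in dust (log2 difference -3.02; adjusted p = 0.162 by edgeR and 0.00417 by DESeq2). Without air rat 65, 20 genes passed in the whole comparison. Glucocorticoid response genes had a median of -0.19. Of 19 tested, 7 had an unadjusted p under 0.05 in the lower direction and 0 in the higher. By edgeR with all 36 libraries 0 passed, and by DESeq2 2 passed, Ddit4 and Nfkbia. Nfkbia also passed by edgeR without air rat 69 (adjusted p = 0.0452). Per1, a clock gene that glucocorticoids induce, stood at 148, 132 and 59.8 CPM in rats 65, 66 and 71 of the air group, at 17.9 to 36.5 CPM in the rest of it, and at 17.1 to 52.2 CPM in dust. Ddit4, an inhibitor of growth signalling, had 10.0 to 24.8 CPM in air and 5.90 to 8.17 CPM in dust (log2 difference -1.13; adjusted p = 0.105 by edgeR and 0.0155 by DESeq2). Of 17 tested erythroid genes, 16 were below 0, with a median of -1.13, and 0 passed by edgeR with all 36 libraries or by DESeq2. Klf1, of this list, passed by edgeR with only the 12 libraries of day 7 (log2 difference -1.46, adjusted p = 0.0456). Alas2, the first enzyme of haem synthesis in red cell precursors, had medians of 495 CPM in air and 180.5 CPM in dust with no overlap (log2 difference -1.89; edgeR adjusted p = 0.959), whereas the globin gene Hba1 had -0.17.

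No list of dust response held a gene that passed by edgeR or DESeq2. The monocyte chemokine gene Ccl2 had air values from 3.57 to 5.67 CPM and dust values from 2.49 to 5.98 CPM, a log2 difference of 0.08 ± 0.22 (SE, n = 6 per group; edgeR adjusted p = 0.969). Cxcl1 and Il1b, which draw in neutrophils and start inflammation, had 0.29 and 0.17, and Hmox1, which breaks down haem under oxidative stress, had 0.27. Lcn2, a defence protein of neutrophils and epithelium, had 62.7 to 104 CPM in air and 52.6 to 183 CPM in dust. The macrophage elastase Mmp12 had a log2 difference of 0.44 ± 0.24, Spp1, which encodes osteopontin, 0.17 ± 0.51, and the surfactant gene Sftpc 0.16 ± 0.09. The ranges of these 8 panel genes overlapped between the groups.

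Whole lists of this kind lay near the median of all genes. Chemokines and cytokines had 11 of 20 above 0 and a median of 0.00, inflammasome genes 7 of 13 and 0.00, macrophage activation genes 12 of 18 and 0.07, and neutrophil genes 9 of 14 and 0.13. Alveolar type 2 genes had 11 of 18 above 0 (median 0.01) and alveolar type 1 genes 15 of 18 below 0 (median -0.06). NRF2 targets, of the antioxidant response, had 14 of 18 above 0 (median 0.05), although their sum was lower in dust, at 2250.0 to 2484 CPM against 2478 to 2766 CPM; lysosome genes 16 of 19 (median 0.02) and collagen and matrix genes 7 of 21 (median -0.08). Interferon response genes had 25 of 28 above 0, a median of 0.18 and 2 with an unadjusted p under 0.05. Within it, Rsad2, which encodes the antiviral protein viperin, was below 0 with no overlap, at 129 to 392 CPM in air and 53.9 to 118 CPM in dust (log2 difference -1.54; edgeR adjusted p = 0.959). Proliferation genes had 26 of 28 above 0, with a median of 0.13.

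No gene on the higher side passed in the edgeR fit of all 36 libraries. Mcpt10, of the mast cell protease family, had 1.59 to 3.52 CPM in air and 3.02 to 5.77 CPM in dust (log2 difference 0.99 ± 0.23, SE, n = 6 per group; edgeR adjusted p = 0.0845). It passed by edgeR without air rats 51 and 53 of day 1 (adjusted p = 0.0339). Hmcn1, an extracellular matrix protein of the fibulin family, had 41.1 to 58.4 CPM in air and 52.3 to 92.2 CPM in dust (log2 difference 0.55 ± 0.13; edgeR adjusted p = 0.105). Hmcn1-2, whose symbol may stand for a second copy of that locus and whose reads could be split with it, had 0.46. Stk25, a kinase, had 0.23. The 3 genes DESeq2 called higher were Mcpt10, Hmcn1 and Stk25. With only the 12 libraries of day 7 in the edgeR fit, 1 higher gene passed, Ryr3 (log2 difference 0.44; adjusted p = 0.041), a ryanodine receptor named here after its value was seen. The mast cell and basophil list had 9 of 13 tested members above 0, with a median of 0.16 and 0 past the threshold by edgeR or DESeq2.

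Levels were then compared with the other groups of the series. In 9 of the 10 called genes the air group of day 7 at 30 mg/m3 had the highest median of all 12 groups; for Gpc1 it ranked below air at day 27 of the same study. The dust group of day 7 ranked from 8 to 12 among the 12. Because these genes were picked for air values above dust values at day 7, the ranks are a description. Ranks over all genes tested were not computed. On the scale of all 64 libraries, Ttn spanned 194 to 745 CPM in air at day 7, 58.5 to 334 CPM at day 1 and 67.2 to 269 CPM at day 27 of that study. Dust rats had 65.7 to 237 CPM at day 1, 63.2 to 152 CPM at day 7 and 110.0 to 278 CPM at day 27. In Ttn, the air rats of day 7 were thus high against air rats of other days. For this gene the dust rats of day 7 lay low within the range of those air rats. For Myl3, medians in air were 1.52, 8.41 and 2.68 CPM at days 1, 7 and 27, and 1.26, 0.105 and 2.42 CPM in dust. The dust rats of day 7, at 0 to 0.148 CPM of Myl3, lay below every air rat of days 1 and 27. The lowest air values of those days were 0.735 and 0.631 CPM. The lowest dust values were 0.135 CPM at day 1 and 0.111 CPM at day 27, within the range of the day 7 dust rats. In the 10 mg/m3 study no rat passed 0.233 CPM.

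**Figure D5:**
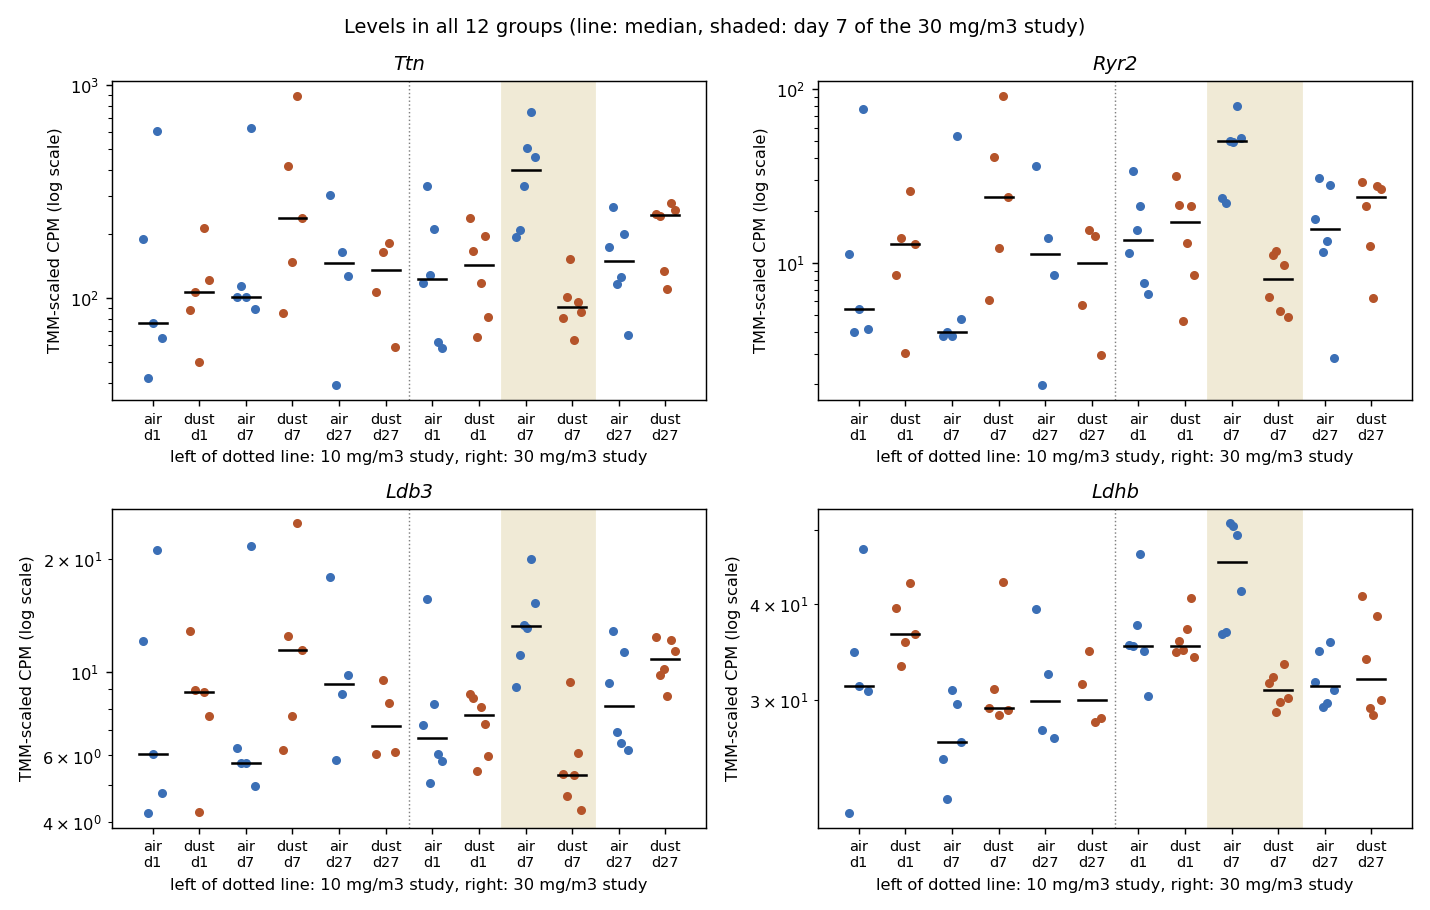
TMM-scaled CPM (vertical axis, log scale) of Ttn, Ryr2, Ldb3 and Ldhb in the 12 groups of the series, with 1 point per rat and a line at each median; the day 7 groups of the 30 mg/m3 study are shaded. In all 4 panels the shaded air group has the highest median, and the spread in the 10 mg/m3 study is wide, with Ttn from 89.3 to 631 CPM in air at day 7.

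Whether the effect differed by day was tested as an interaction. Of 15551 genes, 0 differed between day 7 and day 1 (0%) and 0 between day 7 and day 27 (0%) by edgeR. The counts with an unadjusted p below 0.05 were 720 and 668, those of DESeq2 were 23 and 47, and limma voom gave 0 for both. The dust and air groups of each day are separate rats. For the 10 called genes, the dust effect was from -0.44 to 0.11 at day 1 and from -0.30 to 0.49 at day 27 on the log2 scale. Their differences between days were all below 0, from -2.86 to -0.19 against day 1 and from -3.76 to -0.41 against day 27; because these genes were picked for their day 7 effect, this is a description. Fndc5 had the smallest adjusted p among them against day 1, with a difference of -1.71 ± 0.41 (SE, edgeR adjusted p = 0.246). For Pygm the dust effect at day 1 was already -0.44 ± 0.13 (SE, edgeR adjusted p = 0.191). Its difference, day 7 minus day 1, was -0.19 ± 0.19 (SE, edgeR adjusted p = 0.982). Against day 27, the differences were -3.76 ± 0.80 for LOC103691832 and -1.50 ± 0.32 for Ldb3 (SE; edgeR adjusted p = 0.107 each).

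The day 7 effect was also set against that of the 10 mg/m3 study, as a difference of within-study effects. Of 16190 genes, 0 differed by edgeR (0%), 1298 had an unadjusted p below 0.05, 14 passed with DESeq2 and 0 with limma voom; without air rat 68, 6 genes passed by edgeR. At 10 mg/m3 the called genes had log2 differences above 0 in 10 of 10. They ran from 0.26 ± 0.13 for Ldhb to 1.77 ± 0.81 for LOC103691832 (SE), beside -0.52 and -3.27 at 30 mg/m3. By edgeR, 0 of 16190 genes passed at 10 mg/m3 on day 7. The called genes were picked for their effect at 30 mg/m3, so their signs and differences between studies are a description. The difference between studies was -2.35 ± 0.51 for Fndc5 (SE; edgeR adjusted p = 0.101), -3.88 ± 1.03 for Ryr2 (adjusted p = 0.252) and -2.87 ± 0.82 for Ttn (adjusted p = 0.299). Dose and study are the same split here, so a difference by dose and one by study cannot be told apart.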

How the data were processed

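Lung RNA of 64 rats was measured, 36 in the 30 mg/m3 study. The authors deposited raw read counts per gene. The submitters' processing notes list HTSeq 0.6.1, HISAT2 2.1.0, SAMtools 1.8, Trimmomatic 0.35 and bcl2fastq 2.19, and the build Rnor_6.0. The kit keeps strand, per the labels' protocols. Which annotation and strand option HTSeq used is not given in the sources used here. Antisense pairs, overlapping genes and genes with near-identical copies are therefore uncertain.

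The test was edgeR 4.0.16 in R 4.3.3 (TMM factors; filterByExpr with a minimum count of 10 and a minimum total of 15; robust quasi-likelihood F test; Benjamini-Hochberg at 0.05). All 36 libraries of the study, in 6 groups, entered 1 fit with 30 residual degrees of freedom. The difference between studies used all 64. Where no other setting is named, results by edgeR come from these fits. The common biological coefficient of variation was 16.7%. SE is the size of the log2 fold change divided by the square root of F. Levels are CPM scaled by TMM factors. DESeq2 1.42.0 and limma 3.58.1 (voom), other scalings, filters and sets of libraries were alternatives. Libraries of a group differed by more than counting noise (lowest chi-square per degree of freedom 3.70). The script was tested on simulated data. Members and 43 gene lists were chosen with earlier results of these data known, and so was the rule for named genes: all genes past the threshold, the 8 smallest p of other named genes in each direction, a panel of 8 genes, all muscle list members and up to 4 of each other list; Ager, Scgb1a1, Pecam1, Hba1, Hamp, Apob, Cps1 and Tma7 were chosen after their values were seen. Sequences come from RefSeq tables of build GRCr8. Of the genes past the threshold, 1 is counted in totals but not reported here, and it is left out of the figures.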

Additional observations from a re-analysis of the deposited data

Results flagged for a closer look

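In 46 groups of 6 rats examined, 4 held a rat far from the rest, by Dixon's 95% criterion for the gap to the nearest rat; chance gives about 1 in 20. Ldb3 was at 9.54 CPM in dust rat 75, where the nearest had 6.08 CPM. Gpc1 was at 3.84 CPM in dust rat 79, where the nearest had 5.39 CPM. Ccl2 was at 5.67 CPM in air rat 69, where the nearest had 3.91 CPM. Alb was at 371 CPM in air rat 65, where the nearest had 32.2 CPM.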

How the results depend on the processing

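The count of 10 genes, all lower, became 55 with DESeq2, 6 with no filter on low counts, 6 with a minimum count of 30, 18 with no robust estimation, 19 without air rats 51 and 53 of day 1 (1 of them higher), 36 with only the 12 libraries of day 7 (1 of them higher), 3 with all 64 libraries, 20 without the day 7 library above 100 CPM of Alb (air rat 65) and 0 with the mitochondrial share as a covariate; the cause was not tested. Leaving out 1 rat at a time gave 0 to 21. With all 64 libraries, 1 of the 3 genes (Fndc5) was among the 10, and the others were Myl3 and Myh7. The 10 genes had 257 values under alternatives, of which 156 kept the call, 101 lost it and 0 turned in direction. The fit without air rat 65 is counted in them again as the setting without the library above 100 CPM of Alb. Each of the 10 genes lost its call at least once. The difference between days was 0 genes in all settings except DESeq2, with 23 genes against day 1 and 47 against day 27, and the setting without air rats 51 and 53, with 2 against day 27. The difference between studies was 14 genes with DESeq2 and 6 without air rat 68, 0 in the others. The mitochondrial share differed by -0.380 to -0.466 percentage points without 1 rat. Among panel genes that were not called, Ccl2 turned to -0.032 without dust rat 76 (range without 1 rat -0.032 to 0.209) and to -0.031 with the covariate, Il1b to -0.029 without dust rat 74 (-0.029 to 0.281), and Spp1 to -0.16 without dust rat 76 (-0.16 to 0.276) and to -0.41 with the covariate. Other scalings moved the median of all genes by at most 0.018. No paired analysis was possible because the air and dust rats share no title numbers. Genes below 1 CPM, such as Txlnb and LOC103691832 in dust, with medians of 0.443 and 0.248 CPM, rest on few reads per library. Fndc5, at 0.590 to 1.42 CPM in dust, is near that level.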

Other observations

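Hamp, which encodes the iron hormone hepcidin of liver and heart, was lowest in air rat 68 and highest in air rat 70, as Myl7 was among the air rats: it stood at 1.59, 1.72, 0.339, 3.22, 4.64 and 3.42 CPM in rats 65, 66, 68, 69, 70 and 71 of that group and at 0.178 to 0.574 CPM in dust (log2 difference -2.57; edgeR adjusted p = 0.191). The liver genes Apob and Cps1 were at 58.4 and 16.7 CPM in air rat 65 and at most 4.40 and 1.47 CPM in any other of the 12 rats. Tma7, a translation factor gene, was at 14.9, 18.7, 16.5 and 11.5 CPM in dust rats 73, 74, 76 and 79, at 1.11 and 0.689 CPM in dust rats 75 and 77, and at 0.733 to 1.39 CPM in air (log2 difference 3.29; edgeR adjusted p = 0.391). These genes were chosen after their values were seen.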
